A study of Ovis aries with 8 samples.

Results

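The 10 genes described here encode fibroblast growth factors (FGFs) and their receptors, and were taken by gene symbol from a table of 28475 genes: the ligands FGF2, FGF4, FGF5 and FGF8, the intracellular factor FGF13, the receptor tyrosine kinases FGFR1 to FGFR4, and the receptor-like protein FGFRL1. All 10 symbols were present. Their RNA was followed in sheep embryonic stem cells, derived from inner cell masses, in 8 polyA libraries that form 4 groups of 2. The primed lines A and B, labelled WT, were at passage 10 in feeder-free NBFR medium, which holds Activin A (20 ng/mL), recombinant bFGF, the product of FGF2 (20 ng/mL), the tankyrase inhibitor endo-IWR-1 (3 µM) and 1% BSA. Naive-like cells, labelled as converted from primed cells, were at passage 12 and grown feeder-free or on MEFs, a supporting layer of mouse embryonic fibroblasts. Their medium has no bFGF in its list of additives and holds the MEK inhibitor PD0325901 (1 µM), XAV-939 (2 µM, tankyrase), Go6983 (2 µM, protein kinase C), CGP77675 (1.2 µM, SRC), LIF and Activin A (20 ng/mL each) and ascorbic acid (50 µg/mL). The labels do not name the primed line from which the naive-like cells derive, and medium, passage and state changed together, so their effects cannot be told apart.

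FGF ligands are secreted proteins that bind FGFRs together with heparan sulfate chains on the cell surface; the paired receptors then signal through docking proteins to RAS, RAF, MEK and ERK. In mouse embryos, FGF4 from the epiblast directs neighbouring cells to the hypoblast, FGF5 marks the epiblast as it leaves the naive state, and FGF8 acts at gastrulation. Primed pluripotent cells of several species are cultured with FGF2, whereas naive culture media commonly block MEK.

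Values are in TPM, a transcript abundance corrected for length that sums to 1000000 in each library, so levels of different genes can be set side by side on that scale. The labels give about 20000000 paired-end reads for every library, and since TPM carry no counts, the number of reads behind a single value is unknown. Libraries had 13294 to 13664 genes at 1 TPM or more. Ribosomal RNA genes held 4.42 to 6.26% of TPM in primed and 1.43 to 3.48% in naive-like libraries. The 9 pluripotency markers measured, among them POU5F1, SOX2 and NANOG, were above 0 in every library. Their summed level was 2578 to 2682 TPM in primed and 3337 to 3691 TPM in naive-like libraries. POU5F1 had means of 638 TPM in primed and 1607 TPM in naive-like libraries, and SOX2 of 308 and 313 TPM. LIN28A was lower in naive-like libraries, with means of 1365 and 1136 TPM, as was LIN28B, with 138 and 104 TPM. Marker lists of other cell types differed between the states: summed levels were 159 to 205 TPM in primed and 52.8 to 80.7 TPM in naive-like libraries for 10 neural markers, 435 to 534 against 112 to 128 TPM for 10 hypoblast markers, and 499 to 675 against 63.3 to 71.6 TPM for 9 trophectoderm markers. A few genes carried these sums: APOA1 alone was at 376 to 469 TPM in primed and 69.8 to 90.9 TPM in naive-like libraries, and the keratins KRT8 and KRT18 had primed means of 345 and 219 TPM and naive-like means of 17.3 and 46.4 TPM. GATA4, GATA6, SOX17 and HNF4A of the hypoblast list reached at most 0.390 TPM. CDX2, GATA2, GATA3, TFAP2A and TFAP2C of the trophectoderm list reached at most 1.07 TPM. Of the genes in these 2 sets, GATA4, HNF4A, GATA2, GATA3, TFAP2A and TFAP2C had higher means in naive-like libraries. In the test between states given below, neural markers fell in 8 of 9 tested, hypoblast markers in 4 of 4 and trophectoderm markers in 4 of 4. SOX1, PAX6, RAX, LHX2, DCX, ZIC1, FOXA2 and TEAD4 passed the filter of that test only through primed libraries. The filter thus favoured their fall, and these counts are a description. Of 9 pluripotency markers 4 rose and 2 fell. Over all genes tested, 28.6% rose and 22.1% fell. SOX17 was listed at 0 in every library but line A replicate 1, CDX2 in line A replicate 1, feeder-free replicate 2 and MEF replicate 1, and PAX6, HES5 or ZIC1 in 3 naive-like libraries. These lists move with every difference between states given below, and their part in it was not tested. In bulk RNA, fewer cells of a type and less RNA per cell cannot be told apart.

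In naive-like cells the ligand FGF8 rose, and FGF5, FGF13, FGFR1, FGFR2 and FGFR3 fell. FGFR3 fell most among the receptors, from 35.8 to 12.3 TPM. FGF2, FGFR4 and FGFRL1 did not pass the test between states, and FGF4 was too low to test. Differences were tested with limma on log2(TPM + 1), for genes that reached 1 TPM in 2 or more libraries, at an adjusted p under 0.05 (Benjamini-Hochberg over the 14779 genes tested). Of the 9 members tested, 6 passed, against 50.7% of all genes tested; 1 rose, against 28.6% of all genes, and 5 fell, against 22.1%. The groups did not overlap for 6 of the 9, against 47.7% of all genes. Their median difference was −0.31, and 0.05 over all genes tested. FGF8 passed the filter only through naive-like libraries and FGF5 only through primed libraries. For these genes the filter favoured the direction and the separation of the states, so the counts are a description.

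**Figure D1:**
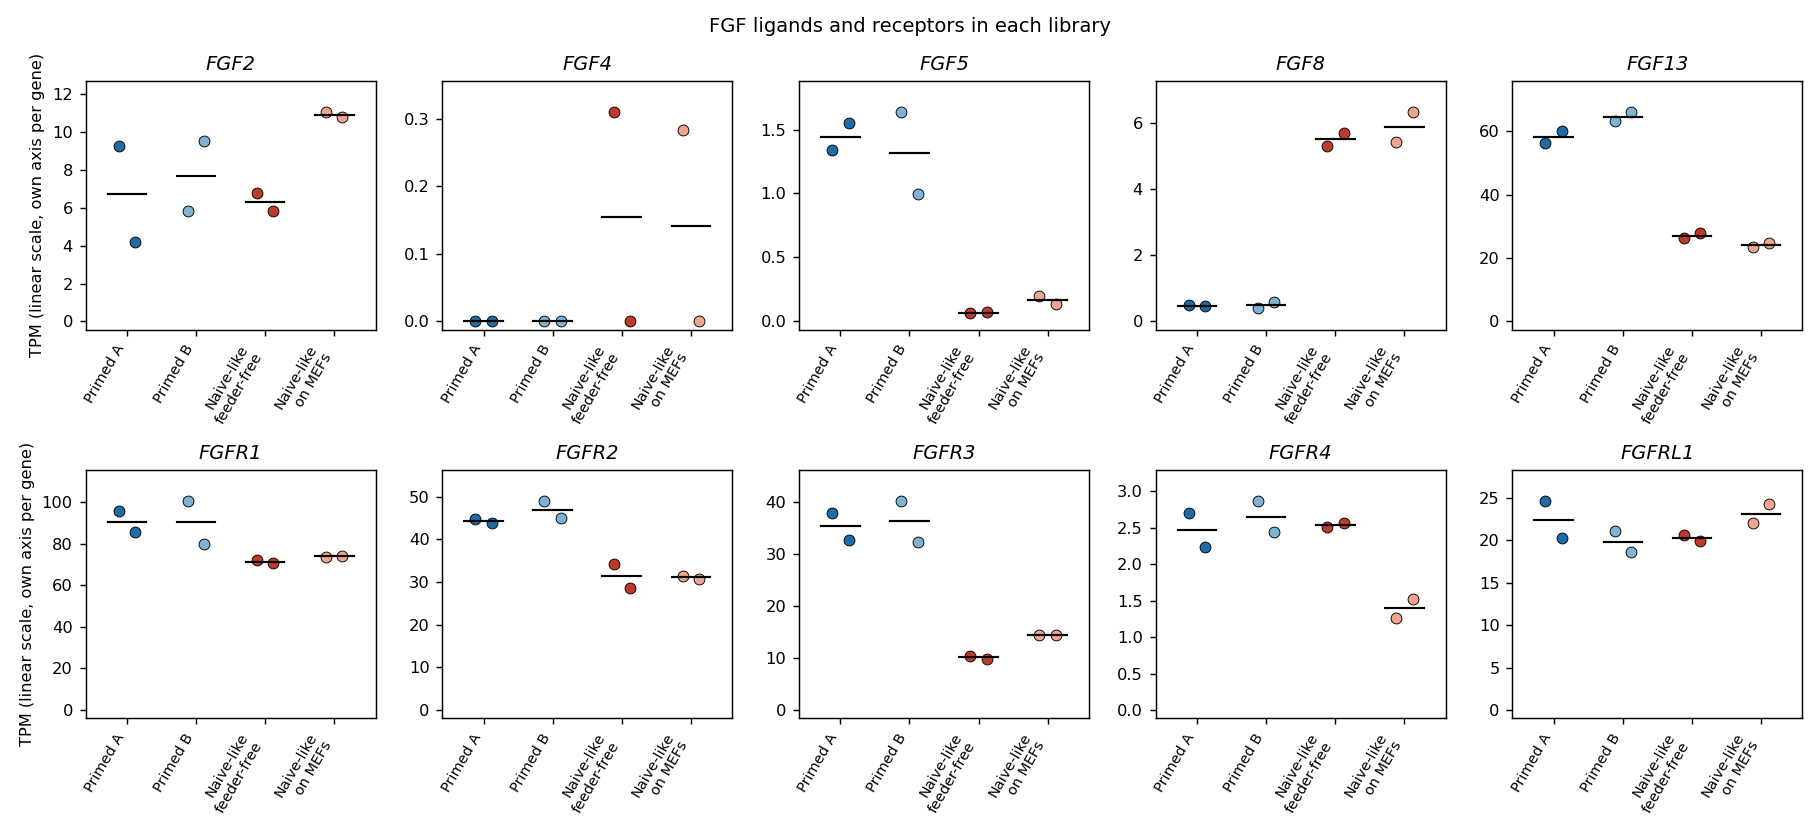
Level of each of the 10 genes in TPM on a linear scale with its own axis, per library (points) in the 4 groups, with the mean of the 2 libraries of a group as a line. FGF8 is high in the 4 naive-like libraries, FGF5, FGF13, FGFR2 and FGFR3 are high in the 4 primed libraries, and FGFR4 is lowest on MEFs.

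Among the ligands, FGF8, which in mouse embryos is needed for mesoderm to move away from the primitive streak, stood at 0.485 and 0.462 TPM in line A and at 0.415 and 0.582 TPM in line B. Feeder-free naive-like libraries held 5.29 and 5.71 TPM, and those on MEFs 5.41 and 6.32 TPM. All 4 naive-like libraries were above all 4 primed libraries, while the groups within a state lay close together. The mean went from 0.486 ± 0.0704 TPM (SD, n = 4) in primed to 5.68 ± 0.458 TPM (n = 4) in naive-like cells, a ratio of 11.7 in TPM. Here and below n counts libraries, pooled over the 2 groups of a state, which the labels do not describe as separate cultures. In log2(TPM + 1), where the changes of low genes come out too small, FGF8 rose by 2.17 ± 0.0994 (SE; limma, adjusted p = 3.51e-07). In the RefSeq sheep assembly ARS-UI_Ramb_v3.0, NPM3, a nucleoplasmin family gene, lies next to FGF8 without overlapping it. NPM3, named after its values were seen, rose by 2.14 on the same scale, from a mean of 35.4 to 147 TPM (limma, adjusted p = 0.000248). Other neighbours, also named after their values were seen, did not move with a member. LETM1, next to FGFR3, rose by 0.29 (adjusted p = 0.00413) and ATE1, next to FGFR2, did not pass (0.13, adjusted p = 0.538), while both receptors fell. ZNF346, next to FGFR4, fell by 0.97 (adjusted p = 0.00123), and FGFR4 did not pass.

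FGF5 was at 1.34 and 1.55 TPM in line A and at 1.63 and 0.994 TPM in line B. It was at 0.0613 and 0.0700 TPM in feeder-free naive-like libraries and at 0.200 and 0.134 TPM on MEFs. Primed levels were thus low as well as separate from the naive-like ones. The primed mean of 1.38 ± 0.285 TPM was 11.8 times the naive-like mean of 0.117 ± 0.0647 TPM (n = 4 each). With a pseudocount of 1 FGF5 fell by 1.08 ± 0.130 on the log2 scale (limma, adjusted p = 0.000135), a size that the pseudocount limits at these levels.

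FGF4, the ligand known from the mouse inner cell mass and a target of OCT4 and SOX2 there, was listed at 0 in all 4 primed libraries. It was at 0.310 TPM in feeder-free replicate 1 and at 0.284 TPM in MEF replicate 1, and was listed at 0 in the second library of each naive-like group. FGF4 was therefore near or at 0 in every group and did not enter the test. FGF3, its neighbour in the RefSeq annotation, was listed at 0 to 0.0473 TPM in primed and at 0 to 0.136 TPM in naive-like libraries.

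FGF2, the gene for the factor that the primed medium supplies as a protein, varied within groups. It was at 9.26 and 4.20 TPM in line A and at 5.83 and 9.55 TPM in line B. Feeder-free naive-like libraries were at 6.80 and 5.81 TPM and MEF libraries at 11.1 and 10.8 TPM, the highest of the 8. The states overlapped, with 7.21 ± 2.62 TPM in primed and 8.61 ± 2.70 TPM in naive-like cells. The difference in log2(TPM + 1) was 0.24 ± 0.269, with a 95% confidence interval from −0.36 to 0.85 (limma, adjusted p = 0.478), so that sizeable changes of FGF2 in either direction are within its error. FGF2 overlaps NUDT6 in the RefSeq annotation, and the labels do not say whether the quantification used strand, so that reads of these genes may not be fully separated. NUDT6 was at a mean of 13.3 TPM in primed and 10.4 TPM in naive-like cells.

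FGF13 belongs to the FGF homologous factors, which are not secreted, do not act through FGFRs in the usual way and are known to bind voltage-gated sodium channels and microtubules. It was the highest of the 5 FGF genes in TPM, at 56.4 and 60.3 TPM in line A, 63.4 and 66.0 TPM in line B, 26.2 and 28.1 TPM in feeder-free naive-like libraries and 23.5 and 24.8 TPM on MEFs. The states did not overlap, and line B stood slightly above line A in both libraries. FGF13 fell by 1.23 ± 0.0733 on the log2 scale (limma, adjusted p = 1.67e-06), from 61.5 ± 4.17 to 25.6 ± 1.97 TPM, a primed level 2.40 times the naive-like level. Between line B and line A the difference was 0.15 ± 0.0712 (adjusted p = 0.246), and between MEFs and feeder-free cells −0.16 ± 0.0712 (adjusted p = 0.245), so neighbouring groups in the order line B, line A, feeder-free and MEFs differed beyond their spread between line A and feeder-free cells (−1.08 ± 0.0712, adjusted p = 1.16e-05).

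Among the receptors FGFR1, the main receptor for FGF2 and FGF4 in mouse epiblast and embryonic stem cells, had the highest level in every library. It was at 95.7 and 85.4 TPM in line A and at 100.5 and 79.9 TPM in line B. It was at 71.9 and 70.5 TPM in feeder-free naive-like libraries and at 73.8 and 74.2 TPM on MEFs. The lowest primed library was above the highest naive-like library, but the primed libraries were spread more widely. FGFR1 fell by 0.31 ± 0.0733 on the log2 scale (limma, adjusted p = 0.00683), from 90.4 ± 9.39 to 72.6 ± 1.74 TPM. Between single groups, feeder-free cells were below line A (−0.34 ± 0.105, adjusted p = 0.0261, where 51.7% of all genes passed) and line B (−0.33 ± 0.105, adjusted p = 0.0303, where 51.2% passed). For MEF cultures the differences of −0.29 to line A and −0.27 to line B did not pass (limma, adjusted p = 0.0544 and 0.0630), where 47.2% and 47.1% of all genes did. LETM2, which overlaps FGFR1 in the RefSeq annotation, was at a mean of 5.12 TPM in primed and 4.83 TPM in naive-like cells.

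FGFR2, whose splice forms IIIb and IIIc bind different ligands in epithelium and mesenchyme, was at 44.7 and 43.9 TPM in line A and 49.0 and 45.0 TPM in line B. Naive-like libraries held 34.2 and 28.5 TPM without feeders and 31.3 and 30.8 TPM on MEFs. The states were separate and the groups within each lay close together. FGFR2 fell by 0.54 ± 0.0676 on the log2 scale (limma, adjusted p = 0.000183), from 45.6 ± 2.26 to 31.2 ± 2.33 TPM.

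FGFR3, a receptor known for restraining bone growth and for its IIIb and IIIc forms, was at 37.8 and 32.7 TPM in line A and at 40.1 and 32.3 TPM in line B. It was at 10.4 and 9.89 TPM in feeder-free naive-like libraries and at 14.4 and 14.3 TPM on MEFs. Feeder-free libraries were the lowest, MEF libraries came next, and all were far below the primed libraries. FGFR3 fell by 1.48 ± 0.135 on the log2 scale (limma, adjusted p = 2.41e-05), from 35.8 ± 3.84 to 12.3 ± 2.44 TPM, so that the primed level was 2.91 times the naive-like level. In the order of levels, line B and line A did not differ beyond their spread (0.03 ± 0.116, adjusted p = 0.90), and MEF cultures were below line A (−1.24 ± 0.116, adjusted p = 9.00e-05).

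FGFR4, which with the co-receptor KLB serves as the receptor of FGF19 in liver, was the lowest of the receptors. It was at 2.70 and 2.23 TPM in line A, 2.87 and 2.44 TPM in line B and 2.50 and 2.56 TPM in feeder-free naive-like libraries, but at 1.27 and 1.53 TPM on MEFs. The MEF libraries lay below the other 6. Between states the difference was −0.29 ± 0.166, with a 95% confidence interval from −0.66 to 0.09 (limma, adjusted p = 0.176). MEF cultures were lower than line A (−0.53 ± 0.142, adjusted p = 0.0163) and line B (−0.61 ± 0.142, adjusted p = 0.00908) in the comparison of single groups, while feeder-free cells differed from line A by 0.03 and from line B by −0.05 (limma, adjusted p = 0.872 and 0.809).

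FGFRL1, which binds FGFs but lacks the intracellular kinase, was at 24.6 and 20.3 TPM in line A, 21.1 and 18.6 TPM in line B, 20.7 and 19.9 TPM without feeders and 22.1 and 24.3 TPM on MEFs. All 8 libraries lay between 18.6 and 24.6 TPM, and the states overlapped. Its difference between states was 0.04 ± 0.0961, with a 95% confidence interval from −0.18 to 0.26 (limma, adjusted p = 0.756), and its sign turned with median-ratio scaling (−0.01).

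**Figure D2:**
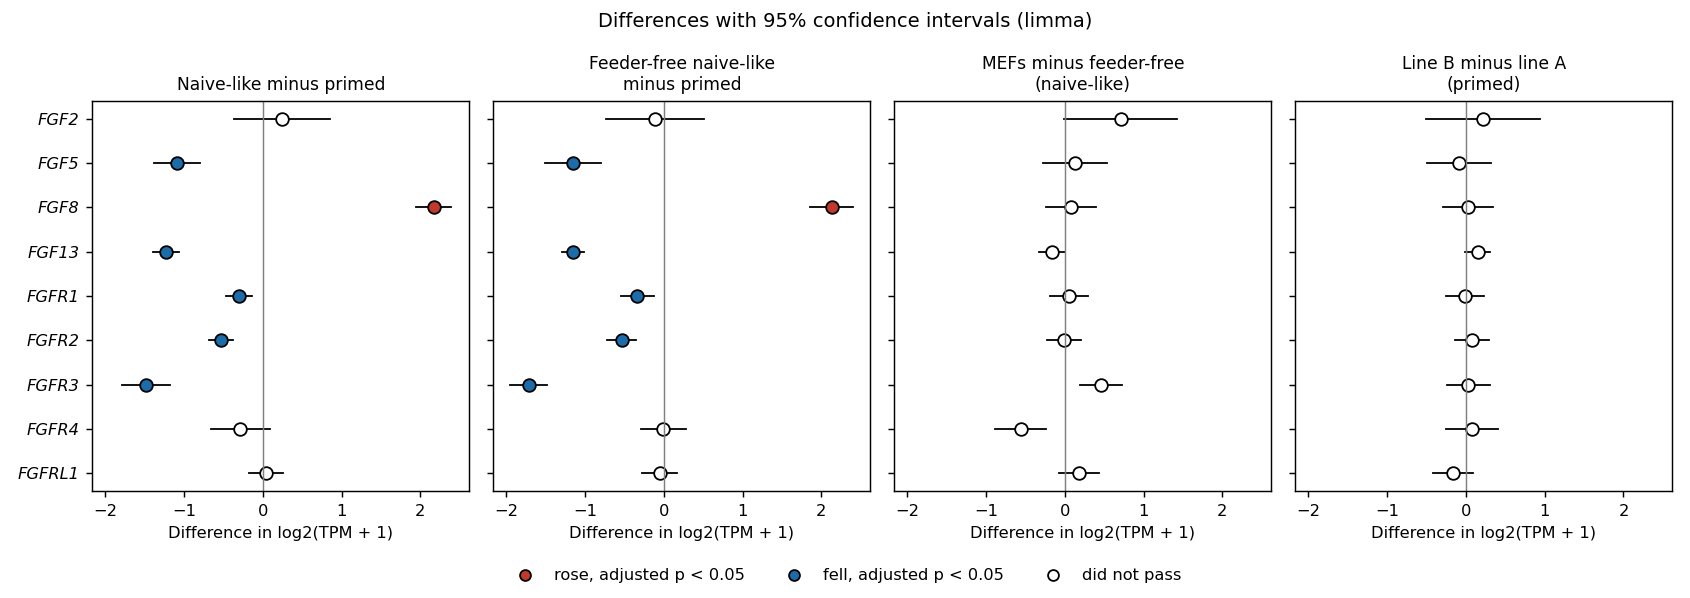
Differences in log2(TPM + 1) for the 9 members tested (points) with 95% confidence intervals (lines) in 4 comparisons; filled points passed at an adjusted p under 0.05, red for higher and blue for lower. FGF8 lies at 2.17 and FGFR3 at −1.48 for naive-like against primed cells, and open points fill the comparisons of MEFs with feeder-free cells and of line B with line A.

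The signalling receptors together were at a lower level in naive-like libraries, and FGFR3 held a smaller share of it. The summed level of FGFR1 to FGFR4 was 174 ± 15.1 TPM (range 159.7 to 192 TPM, n = 4) in primed and 118 ± 4.48 TPM (range 111 to 121 TPM, n = 4) in naive-like libraries. FGFR1 made up 51.8 ± 1.22% of that sum in primed and 61.5 ± 1.21% in naive-like libraries, and FGFR3 20.5 ± 0.479% and 10.4 ± 1.78%. FGFR2 held 26.3 ± 1.52% and 26.4 ± 1.54%, and FGFR4 1.47 ± 0.0740% and 1.68 ± 0.613%. The level of FGFR1 was 2.47 to 2.61 times that of FGFR3 in primed libraries, 6.89 and 7.13 times without feeders and 5.12 and 5.17 times on MEFs. The level of FGFRL1 was 12.1 ± 1.13% of the sum in primed and 18.4 ± 1.18% in naive-like libraries. These shares are a description of the libraries and were not tested.

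**Figure D3:**
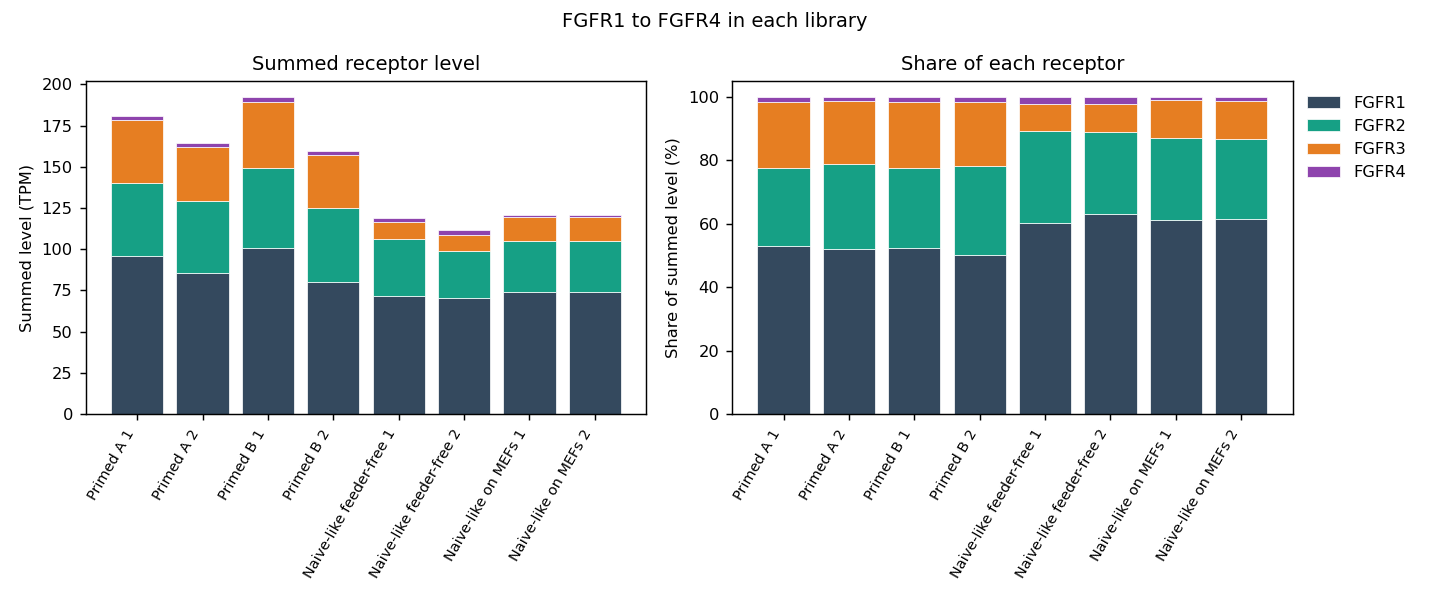
Left, stacked levels of FGFR1 to FGFR4 in TPM per library; right, the share of each receptor in that sum in percent. FGFR3 (orange) holds 19.9 to 20.9% in primed and 8.77 to 11.9% in naive-like libraries.

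Feeder-free naive-like cells were also set against the primed cells, which had no feeders either. This comparison shares its libraries with the one above and is no independent evidence. Of 9 members 6 passed, against 56.4% of all genes tested. FGF8 rose by 2.13 ± 0.119, and FGF13 (−1.15 ± 0.0616), FGF5 (−1.15 ± 0.152), FGFR3 (−1.71 ± 0.101), FGFR2 (−0.53 ± 0.0798) and FGFR1 (−0.33 ± 0.0905) fell. FGFR1 had an adjusted p of 0.0141 (limma), which was 0.0533 without feeder-free replicate 1 and 0.0721 without feeder-free replicate 2, and 0.00170 to 0.0721 over all alternatives. FGFR4 differed by −0.01 ± 0.123, FGF2 by −0.11 ± 0.269 and FGFRL1 by −0.05 ± 0.0964.

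The comparison of naive-like cells on MEFs with those without feeders asked what the supporting layer changed. Of 9 members 0 passed in limma, against 5.16% of all genes tested, and 2 had an unadjusted p under 0.05. These were FGFR3, higher on MEFs by 0.46 ± 0.116 (adjusted p = 0.0640), and FGFR4, lower by 0.56 ± 0.142 (adjusted p = 0.0648), and for each of them the MEF and feeder-free values were separate, as they were for 52.6% of all genes. With median-ratio scaling both passed (limma, adjusted p = 0.0457 and 0.0477), FGFR3 also passed without line B replicate 1 or 2 (adjusted p = 0.0467 and 0.0461), and over all alternatives the adjusted p ran from 0.0445 to 0.246 for FGFR3 and from 0.0419 to 0.296 for FGFR4. FGF2 was higher on MEFs by 0.71 ± 0.311, with a 95% confidence interval from −0.01 to 1.43 (limma, adjusted p = 0.246). Between the primed lines 0 of 9 members passed in limma, against 7.36% of all genes, and 0 had an unadjusted p under 0.05. The largest differences were 0.22 ± 0.311 for FGF2 and −0.17 ± 0.111 for FGFRL1.

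The remaining FGF genes were 14 secreted ligands and 3 homologous factors. Of these 17, 10 were under 1 TPM in every library, and 6 entered the test. FGF17, a ligand of the same subfamily as FGF8, was at 0.0544 and 0.0560 TPM in line A and was listed at 0 in both libraries of line B. Naive-like libraries held 4.30 and 4.46 TPM without feeders and 4.04 and 4.48 TPM on MEFs. FGF17 was thus high in the same 4 libraries as FGF8, and rose by 2.37 ± 0.0983 (limma, adjusted p = 2.01e-07). Like FGF8, it passed the filter only through those libraries, which favoured a rise. Over the 8 libraries and on a TPM scale, FGF8 and FGF17 reached similar levels in naive-like cells, with means of 5.68 and 4.32 TPM.

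FGF10, a ligand of FGFR2 IIIb known from mesenchyme, was at 2.06 and 2.89 TPM in line A and 2.78 and 2.66 TPM in line B. It was listed at 0 in both feeder-free naive-like libraries and was at 0.817 and 0.889 TPM on MEFs. FGF10 fell by 1.40 ± 0.237 between states (limma, adjusted p = 0.00107). It passed the filter only through primed libraries, which favoured a fall. On MEFs it was higher by 0.89 ± 0.158 (limma, adjusted p = 0.0203), a call lost when any single library of the 2 groups was left out (adjusted p = 0.0586 to 0.134) and with a pseudocount of 5 (adjusted p = 0.0852). FGF7, also a ligand of FGFR2 IIIb and also known from mesenchyme, was listed at 0 in line A, at 0.0871 and 0 TPM in line B, at 0.0744 and 0 TPM without feeders, and at 5.07 and 4.32 TPM on MEFs. FGF7 was higher on MEFs than without feeders by 2.46 ± 0.153 (limma, adjusted p = 0.000134), and between states its difference of 1.25 ± 0.584 did not pass (adjusted p = 0.103). It passed the filter only through the MEF libraries, which favoured a higher level there.

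Some fibroblast markers were higher on MEFs, as FGF7 and FGF10 were, and others were not. The summed level of 15 of them was 291 TPM in each MEF library, 107 to 115 TPM without feeders and 140 to 185 TPM in primed libraries, with COL1A1 at means of 156 TPM on MEFs and 28.3 TPM without feeders. COL1A2 was at 39.0 and 37.0 TPM on MEFs against 0.0468 and 0.219 TPM without feeders, and PRRX1 at 6.84 and 8.54 TPM against 0 and 0.0267 TPM. Of all genes tested, 2.89% rose and 2.27% fell on MEFs against feeder-free cells. Among 11 tested fibroblast markers 5 rose there (COL1A1, COL1A2, COL3A1, PRRX1 and TWIST1) and 4 did not pass. The other 2 fell: COL5A1 was at 28.6 and 29.1 TPM on MEFs against 39.6 and 37.7 TPM without feeders (limma, adjusted p = 0.0382), and LUM at 13.1 and 11.2 TPM against 20.4 and 17.2 TPM (adjusted p = 0.0209). DCN (−0.36, adjusted p = 0.492) and THY1 (−0.21, adjusted p = 0.571) were among those that did not pass. FAP was listed at 0 in MEF replicate 1 and S100A4 in MEF replicate 2. PRRX1 passed the filter only through the MEF libraries, which favoured its rise. Between states 3 of 11 fell, against 22.1% of all genes tested. The labels do not say how RNA of the mouse feeders was treated, and the part of feeder RNA in FGF7, FGF10, FGF2, FGFR3 and FGFR4 was not tested.

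**Figure D4:**
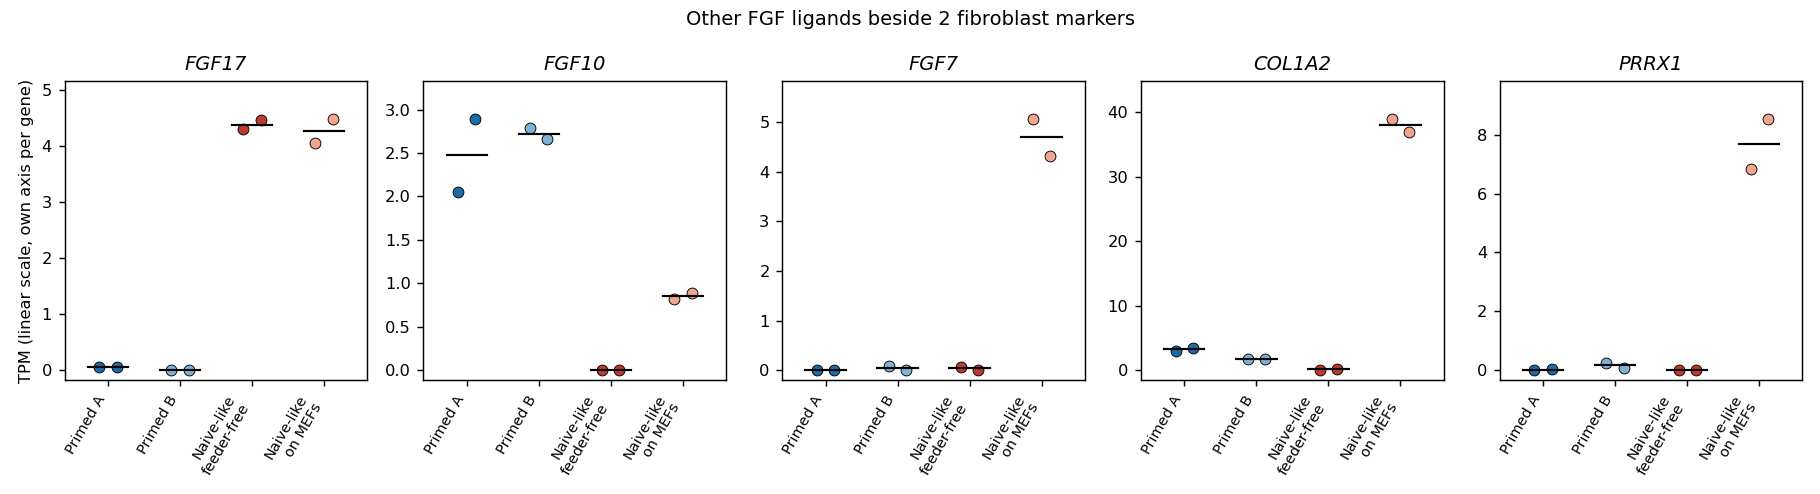
Level in TPM (linear scale, own axis) of FGF17, FGF10, FGF7, COL1A2 and PRRX1, per library (points) with the mean of each group (line). COL1A2 and PRRX1 are among the 5 of 11 fibroblast markers that rose on MEFs, where 2.89% of all genes tested rose. FGF17 is near 0 in primed libraries and above 4 TPM in every naive-like library, while FGF7, COL1A2 and PRRX1 are highest on MEFs.

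The other tested ligand FGF19 was lower in naive-like cells, at means of 1.51 ± 0.326 and 0.837 ± 0.243 TPM, by 0.45 ± 0.145 (limma, adjusted p = 0.0270). That call was lost when either MEF library, line A replicate 1, line B replicate 1 or feeder-free replicate 1 was left out (adjusted p = 0.0515 to 0.0703), and its adjusted p reached 0.114 with the means of the groups. The homologous factor FGF11 fell by 0.52 ± 0.127, from 9.57 ± 1.75 to 6.32 ± 0.638 TPM (limma, adjusted p = 0.00787; 0.0843 with the means of groups). FGF12 was at 3.47 ± 1.88 and 1.76 ± 0.630 TPM and did not pass (−0.63 ± 0.282, adjusted p = 0.0901), but it did without line A replicate 2 (−0.84, adjusted p = 0.0264).

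By count of genes, cell surface partners of the receptors were mostly lower in naive-like cells. Of 5 tested co-receptors and FGF-binding proteins, 4 fell, against 22.1% of all genes tested, with a list median of −2.05. FLRT3, a membrane protein that binds FGFRs, went from 29.3 ± 3.17 to 2.02 ± 0.263 TPM (−3.32 ± 0.102). N-cadherin CDH2 (−3.44 ± 0.159) and the adhesion molecule NCAM1 (−2.05 ± 0.169), which are both known to bind FGFR1, fell as well. Among core proteins that carry heparan sulfate 8 of 12 tested fell and 3 rose (median −1.02), against 22.1% and 28.6% of all genes tested. The syndecans SDC4 and SDC2 fell by 1.11 ± 0.0532 and 1.95 ± 0.103, and COL18A1, a basement membrane proteoglycan, by 1.36 ± 0.0691. The 3 that rose, named after their values were seen, were GPC4, AGRN and SDC1. GPC4 had the highest level of this list in TPM and went from a mean of 189 to 238 TPM (0.34 ± 0.0743). AGRN went from 48.7 to 96.7 TPM (0.98 ± 0.0758) and SDC1 from 44.8 to 50.3 TPM (0.17 ± 0.0599).

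Enzymes that make and sulfate heparan sulfate split, with 8 rises and 7 falls among 21 tested (median −0.07). Over all genes tested, 28.6% rose and 22.1% fell. The sulfotransferases HS3ST3A1 (1.30 ± 0.121), HS3ST2 (1.41 ± 0.180) and HS6ST1 (0.60 ± 0.0783) rose. HS3ST2 was low in primed libraries, at 0 to 0.249 TPM, and at 1.35 to 3.11 TPM in naive-like libraries. HS3ST2 and HS3ST3A1 passed the filter only through naive-like libraries, which favoured a rise. The 7 falls included EXT1 (33.4 to 18.2 TPM), HS6ST2 (38.2 to 26.3 TPM) and HS2ST1 (26.2 to 19.4 TPM), named after their values were seen. Inside the cell, 6 of 24 adaptors and members of the RAS to ERK cascade rose, 3 fell and 15 did not pass (median 0.12). That is 37.5% passing, against 50.7% of all genes tested, of which 28.6% rose and 22.1% fell. The GTPase HRAS rose by 0.71 ± 0.0594 and the adaptor CRKL by 0.40 ± 0.0455, and the kinase RPS6KA3, which ERK activates, fell by 1.05 ± 0.116. FRS2, the docking protein that links FGFRs to GRB2 and was named after its values were seen, rose by 1.07 ± 0.133, from 20.0 ± 0.981 to 43.6 ± 8.56 TPM.

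Target and feedback genes of ERK fell in 14 of 22 and rose in 1 (median −0.95), against 22.1% and 28.6% of all genes tested. SPRY1, an inhibitor of receptor signalling, was at 49.7 ± 3.68 TPM in primed and 5.70 ± 0.525 TPM in naive-like cells. DUSP4 was at 49.3 ± 8.75 and 0.644 ± 0.333 TPM, and the transcription factor ETV5 at 51.2 ± 5.78 and 12.3 ± 1.06 TPM. Between MEFs and feeder-free cells 4 of the 22 fell and 2 rose, against 2.27% and 2.89% of all genes. DUSP6, a phosphatase of ERK named after its values were seen, was at 27.9 and 29.7 TPM without feeders and 11.5 and 10.8 TPM on MEFs.

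Because the table is by gene, the IIIb and IIIc forms of FGFR1 to FGFR3 could not be separated. Regulators of that splicing choice changed between states, with 5 of 8 rising and 1 falling (median 0.30), against 28.6% and 22.1% of all genes tested. The 5 were ESRP1, ESRP2, HNRNPF, HNRNPH1 and PTBP1, of which ESRP2, HNRNPH1 and PTBP1 were named after their values were seen. PTBP1 rose by 0.28 ± 0.0396. The count does not show which form was favoured. ESRP1, which promotes the IIIb form of FGFR2, was at 1.40 ± 0.287 TPM in primed and 56.7 ± 3.51 TPM in naive-like cells (4.59 ± 0.0990). RBFOX2 and HNRNPF are also known to promote the IIIb form of FGFR2, by silencing exon IIIc, and they moved in opposite directions: RBFOX2 fell by 0.60 ± 0.0829 and HNRNPF rose by 0.32 ± 0.0424. Every median of a list in these paragraphs stands beside a median of 0.05 over all genes tested for state.

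**Figure D5:**
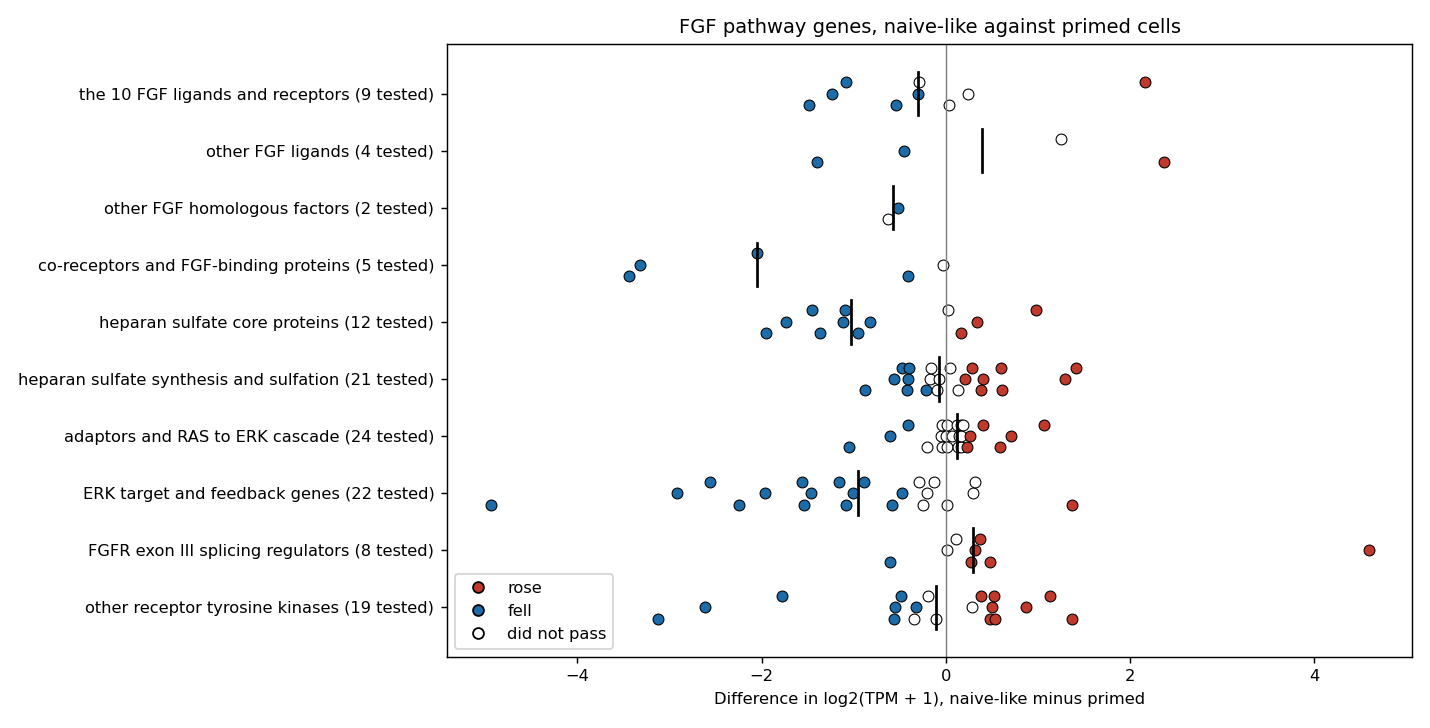
Difference in log2(TPM + 1) between naive-like and primed cells for each tested gene (points, offset vertically for legibility) of the 10 FGF genes and of other gene lists, with the list median as a black line; red points rose, blue points fell and open points did not pass. The list of core proteins with heparan sulfate has a median of −1.02 and the RAS to ERK cascade one of 0.12.

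Genes with the most similar pattern were sought for the 6 members with a mean of at least 5 TPM, by Pearson's r of log2(TPM + 1) over the 8 libraries among 9594 genes; with 8 libraries in 2 states, high values are common and no test is given. FGFR3 was most like KLHL24, VPS13A and ZNF518B (r = 0.998, 0.997 and 0.997), and 1185 genes exceeded 0.9. FGFR2 was most like SLC44A1, ZNRF2 and ARMCX3 (r = 0.995, 0.994 and 0.993), FGF13 like LRRC31, DACT3 and SLC43A1 (r = 0.999, 0.998 and 0.997), and FGFR1 like AMOTL2, SULF1 and TP53BP1 (r = 0.983, 0.982 and 0.982). FGF2 and FGFRL1, which did not follow the states, had 4 and 7 genes above 0.9; PACRGL, CENPB and UBE2D4 led for FGF2 (r = 0.975, 0.946 and 0.923) and SPTAN1, TRIM41 and CUL7 for FGFRL1 (r = 0.944, 0.929 and 0.929). Among the members, FGF8 ran opposite to FGF13 (r = −0.987) and FGF5 (r = −0.981), and FGF2 correlated with FGFR3 at −0.15.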

How the data were processed

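The authors deposited TPM for 28475 genes in 8 libraries. Per the submitters' processing notes the tool was Salmon, and no source used here names its version, the genome build or the use of strand. Without counts, no count model was used. Symbols were looked up in RefSeq (ARS-UI_Ramb_v3.0, 28429 matched) for names and neighbours. After conversion to log2(TPM + 1), the 14779 genes that reached 1 TPM in 2 or more libraries entered limma 3.58.1 (R 4.3.3, variance trend, two-sided, Benjamini-Hochberg). State was fitted as 4 against 4 libraries, all other comparisons as contrasts of 4 groups. The labels do not say whether libraries of a group were separate cultures, so p-values measure the spread between these libraries. The fits were run on simulated data that held the spread within groups and none between groups of a state. That run could not show how the state fit behaves under a spread between groups.

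Members and lists were chosen with earlier results of these data known. Named were all members, the 3 genes of each other list with the smallest adjusted p for state, and the 3 genes most like each member; others are marked as named after their values were seen, or serve as neighbours or as values beside a result. Alternatives changed the pseudocount (0.1, 5), the filter (none, or a mean over all libraries of 5 TPM or more), the scaling (median-ratio, or without 18 ribosomal RNA and 80 ribosomal protein genes), the variance trend (none), the threshold (0.01), the design (replicate number as a block, group as a random block, means of groups, the groups compared alone) and the libraries (each left out).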

Additional observations from a re-analysis of the deposited data

Results flagged for a closer look

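Of 99 sets of 4 libraries of a state, taken over the members and the genes named from lists, 2 held a library that stood apart from the other 3 by Dixon's ratio at its 95% critical value; chance gives about 1 in 20. ESRP1 was at 62.0 TPM in feeder-free replicate 1 and at 54.7 to 55.2 TPM in the other naive-like libraries (ratio 0.930). HS6ST1 was at 35.6 TPM in the same library and at 32.0 to 32.5 TPM in the others (ratio 0.879). None of the 10 FGF ligands and receptors was among them.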

How the results depend on the processing

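For state, 6 members passed as reported, and FGF8, FGF5, FGF13, FGFR1, FGFR2 and FGFR3 kept direction and call in every alternative that tested them; a mean of 5 TPM or more leaves out FGF5, FGF8 and FGFR4. The highest adjusted p of FGFR1 was 0.0450 (limma, lowest 0.00173). Genes called for state fell from 7493 to 4023 with the means of groups. For MEFs against feeder-free cells 762 genes were called, 497 without a filter, 253 at an adjusted p under 0.01, 235 with the groups alone and 160 to 644 with a library left out; members called went from 0 to 2 with median-ratio scaling, 1 after rescaling without ribosomal genes, 1 without the variance trend and 0 to 1 with a library left out. For line B against line A 1087 genes were called, 364 at an adjusted p under 0.01, 420 with the groups alone and 363 to 1223 with a library left out. Over pairs of groups, 24 of 54 combinations of member and pair passed, and 15 of 36 with a mean of 5 TPM or more; of all genes, 47.1 to 51.7% passed in the 4 pairs across states, 5.16% between MEFs and feeder-free cells and 7.36% between the lines. A library left out means a group of 1, assumed to vary like the others.

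Some differences that did not pass changed sign, and the cause was not tested. For state, FGFRL1 was at −0.0100 with median-ratio scaling and at −0.0083 after rescaling, and ran from −0.016 to 0.11 with a library left out. For feeder-free against primed cells, with a library left out, FGF2 ran from −0.36 to 0.13, FGFR4 from −0.056 to 0.041 and FGFRL1 from −0.12 to 0.017. For MEFs against feeder-free cells FGF8 ran from −0.020 to 0.17, FGF17 from −0.093 to 0.027 and FGFR2 from −0.14 to 0.12, with 0.014 after rescaling. For line B against line A FGF2 ran from −0.27 to 0.71, FGF5 from −0.29 to 0.11, FGF8 from −0.059 to 0.10, FGFR1 from −0.18 to 0.15, FGFR4 from −0.020 to 0.17 and FGFR3 from −0.12 to 0.18, with −0.030 under median-ratio scaling and −0.0020 after rescaling.

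Same-numbered libraries shared little deviation from their group means: over 6 pairs of groups the correlation of deviations ran from −0.0748 to 0.0973. Whether a weak pairing was present was not tested. With the replicate block 7237 genes passed for state and 697 for MEFs against feeder-free cells, where 1 member, FGFR3, was called (limma, adjusted p = 0.0445; 0.0445 to 0.246 over all alternatives).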

Other observations

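Other receptor tyrosine kinases changed in both directions between states, with 8 of 19 tested rising, 7 falling and a median of −0.11. Over all genes tested, 28.6% rose, 22.1% fell and the median was 0.05. The insulin-like growth factor receptor IGF1R fell by 3.13 ± 0.125 (SE), from a mean of 11.9 to 0.486 TPM. It passed the filter only through primed libraries, which favoured a fall. AXL, the receptor of GAS6, fell by 1.78 ± 0.109, from 23.7 to 6.19 TPM, and PDGFRB, a receptor known from mesenchymal cells, by 2.61 ± 0.173, to 1.34 TPM.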
